A study of Mus musculus with 6 samples.

Results

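The Polycomb group genes and their partners in chromatin regulation were followed as a set of 35 genes of the 24062 in the count tables. They were taken by gene symbol, and all 35 were found. By role they fell into 5 genes of Polycomb repressive complex 2 (PRC2), 10 of Polycomb repressive complex 1 (PRC1), 2 Asxl genes, 4 trithorax partners, the methyltransferase gene *Dot1l*, 4 histone demethylases, 4 remodeler subunits, 3 deacetylases and 2 acetyltransferase coactivators. Between the sorted fractions, 0 of the 34 genes that could be tested passed the test, and the values below describe how high each gene read and how far its libraries lay apart.

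The cells came from the aorta-gonad-mesonephros region (AGM) of mouse embryos at embryonic day (E) 10.5, of the strain C57BL/6JOlaHsd with the Gata2Venus reporter. In this reporter the fluorescent protein Venus is made from the *Gata2* transcript itself through an internal ribosome entry site, so its brightness follows *Gata2*, a transcription factor needed for the first hematopoietic stem cells. Cells positive for the endothelial marker CD31 and for the receptor ckit were sorted into an intermediate fraction (CD31+ckit+Vmed, labelled G2Vi) and a high fraction (CD31+ckit+Vhigh, labelled G2Vh), with 3 libraries each, replicates 1, 2 and 3. Both fractions carry the reporter allele and differ in how bright Venus was, so cells without the reporter are not part of the comparison. How many embryos went into a library is not given in the sources used here. The study describes the RNA sequencing values as coming from independent experiments, while the labels do not tie libraries to sorts or litters. *Xist*, which is read from the inactive X chromosome of females, and Y-linked *Ddx3y* and *Eif2s3y* all had counts in every library. Reads of both sexes were thus found in each library. The other Y-linked genes listed were not found throughout. *Uty* had 0 counts in Vhigh replicate 1, and *Kdm5d* had 0 in Vmed replicate 3 and Vhigh replicate 1.

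PRC2 methylates lysine 27 of histone H3 through *Ezh2* or its relative *Ezh1*, with *Eed* and *Suz12* as the other core subunits and *Jarid2* as a partner that brings the complex to DNA. PRC1 adds ubiquitin to histone H2A through the RING proteins encoded by *Rnf2* and *Ring1*. Its Cbx subunits bind the methyl mark left by PRC2, and *Bmi1* is a PRC1 subunit known for the self-renewal of hematopoietic stem cells. Trithorax complexes methylate lysine 4 of histone H3 at active genes, and are held together by *Wdr5*, *Ash2l* and *Rbbp5*.

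Sequence near the start sites was searched for 4 short motifs. The 4 stretches that carry a match in *Ezh2*, *Phc3*, *Asxl2* and *Smarcb1* are shown with the match in capitals. A match to the GATA letters in *Chd4* is not shown. The fold changes and levels of these genes are described below. The windows reach from 250 bases before to 50 bases after each start site in RefSeq (GRCm38.p6) and were held for 29 of the 35 genes. The *Ezh2* stretch lies at chr6:47595012-47595035 on the minus strand, the *Phc3* stretch at chr3:30969409-30969432 on the minus strand, the *Asxl2* stretch at chr12:3426747-3426770 on the plus strand and the *Smarcb1* stretch at chr10:75921586-75921609 on the minus strand. All read 5′ to 3′ in the direction of the gene.
Ezh2: ttgctgcgTTTGGCGCtcggtccg
Phc3: aaaggaggCGCATGCGcacttcgt
Asxl2: cggagacaCCGGAAGTgcaggggc
Smarcb1: cttctccaCGCATGCGcaccgagg

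Each motif was sought on both strands. The letters TTTCGCGC or TTTGGCGC, a form of the motif bound by E2F factors, stood in the windows of 1 of the 29 genes, *Ezh2*, which is 3.45%, against 1.86% of the 9593 tested genes with a window. CGCATGCG, which reads the same on both strands and is the core of the motif bound by NRF1, stood in the *Phc3* and *Smarcb1* windows, 2 of 29 or 6.9%, against 4.36% of the 9593. CCGGAAGT, a form bound by ETS factors, was found in the *Asxl2* window alone of the 29, against 8.91%, and the GATA letters AGATAA in the *Chd4* window alone, against 7.79%. Taking for each gene its window with the most CpG, the median of the 29 was 9.67 CpG per 100 bases, against 7.33 over the 9593. A motif was counted if any window of the gene held it, so both measures can rise with the number of windows. These matches are letters in a window and were not measured as sites.

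Gene counts per library ran from 8296831 to 12035206, and 3 counts, the smallest number taken as shown, came to between 0.249 and 0.362 CPM (counts scaled to a common library total). Vhigh replicate 1 stood apart, with counts in 10427 genes against 12709 to 18460 in the other 5 libraries, and 25.0% of the 12688 genes tested read there under 1/4 of their lowest value elsewhere. Replicate 3 of both fractions held more *Rn45s*, the ribosomal RNA precursor, at 10.5% and 7.47% of gene counts against 0.887% to 1.53% in the others, and had 1788695 and 1896093 alignments outside annotated genes, against 5806735 to 16947171. *Pecam1* (CD31) and *Kit* had counts in every library. *Kit*, which encodes the sort marker ckit, read 64.1, 208 and 59.1 CPM in Vmed and 254, 490 and 521 CPM in Vhigh. *Runx1* read 4.58, 30.5 and 31.2 CPM in Vmed and 41.9, 114 and 141 CPM in Vhigh. Neither gene overlapped between the fractions, and 4.15% of all genes tested had every Vhigh library above every Vmed library. *Pecam1*, *Gata2*, *Cdh5*, *Kdr*, *Ptprc* and *Itga2b*, the other sort and tissue markers listed, overlapped. *Gata2*, on whose reporter the cells were sorted, read 50.3, 29.4 and 68.3 CPM in Vmed and 39.2, 82.5 and 142 CPM in Vhigh, so the library labelled Vhigh replicate 1 lay below Vmed replicates 1 and 3. Marker genes of other cells differed in level, with 8 mesenchyme markers summing to 1429 to 4084 CPM in Vmed and 186 to 422 CPM in Vhigh, and 10 macrophage markers to 1013 to 1758 CPM and 142 to 506 CPM. The 7 megakaryocyte markers summed to 373 to 877 CPM in Vmed and 159 to 417 CPM in Vhigh, and 5 neural markers to 39.9 to 170.2 CPM and 10.1 to 114 CPM. Of 8 erythroid markers *Hba-a1*, *Hbb-bt* and *Hbb-bs* were at 0 in all libraries, and the list summed to 146 to 527 CPM and 93.2 to 233 CPM. Their part in the values of the chromatin genes was not tested. In sorted bulk cells, fewer cells of a type and less RNA per cell cannot be told apart.

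Levels are first given per length, as CPM per kilobase of exon (RPKM), since only this scale compares genes. The median over the 6 libraries was highest for *Rnf2*, at 50.6 RPKM, followed by *Smarcb1* (40.1), *Hdac3* (38.4), *Hdac2* (33.8), *Wdr5* (25.6) and *Ezh2* (23.7). These neighbours were not separated by their spread, since *Rnf2* alone ran from 41.6 to 119.7 RPKM and *Smarcb1* from 29.8 to 55.2. At the other end stood *Ring1*, *Cbx7* and *Cbx8*, with medians of 1.19, 0.357 and 0.0906 RPKM. Together the 35 genes took 0.243% to 0.390% of each library's gene counts. Of the 35 genes, 34 passed the filter on low counts, and *Cbx8*, a chromobox subunit of PRC1, did not, with 0, 4 and 110 counts in Vmed and 0, 2 and 51 in Vhigh.

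**Figure D1:**
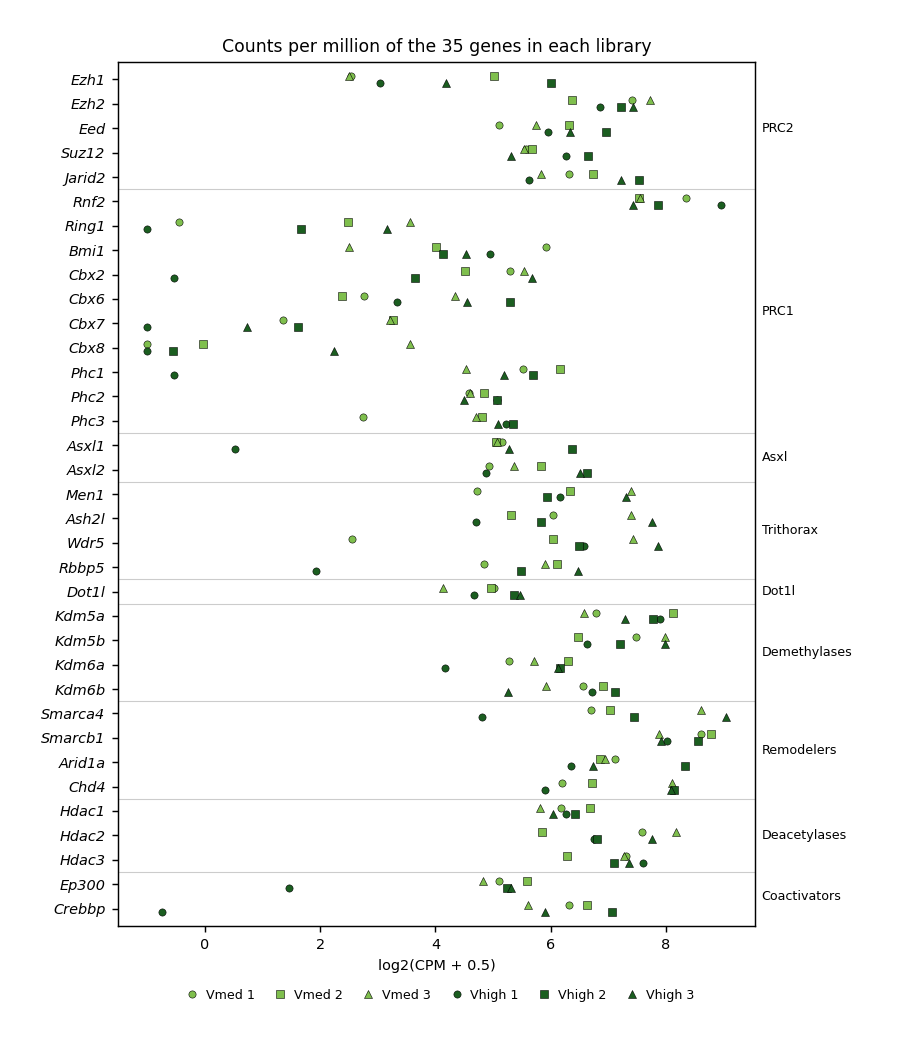
Each row is a gene and each point a library, with log2(CPM + 0.5) on the horizontal axis, light symbols for Vmed, dark symbols for Vhigh and the symbol's shape for the replicate number. The dark circles of Vhigh replicate 1 lie far to the left for *Cbx2*, *Phc1*, *Asxl1*, *Ep300* and *Crebbp*.

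Vhigh and Vmed were compared over all genes in edgeR's quasi-likelihood test, and every fold change below is Vhigh over Vmed on the log2 scale. None of the 34 genes reached an adjusted p under 0.05 (0 of 12688 genes tested, 0%), and each had an adjusted p of 0.9998. At an unadjusted p under 0.05 the count was again 0 of 34, against 259 of the 12688 genes, or 2.04%. DESeq2 called 51 genes (0.402%) and edgeR's likelihood ratio test 21 (0.166%), with 0 of the 34 in either. With the replicate number as a block, 0 of the 34 had an unadjusted p under 0.05, against 4.16% of all genes tested, and the likelihood ratio test in that model called 0 of the 34 against 0.583%. In the fit without the block, the fitted value lay above 0 for 19 of the 34, or 55.9%, against 48.9% of all genes tested. The median of the 34 was 0.11, against -0.02 over all, and turned to -0.04 without Vhigh replicate 2. For 33 of the 34 the fold change in that fit was smaller than its own standard error, with *Cbx7* as the exception. With the block, further genes exceeded theirs, among them *Wdr5* (1.46, standard error 0.80), *Eed* (0.66, 0.49) and *Smarcb1* (-0.29, 0.23). The values that follow are without the block. The narrowest estimate was that of *Smarcb1*, -0.33 with a standard error of 0.44 and an interval from -1.30 to 0.65. The standard errors had a median of 0.84 over the 34 and 1.28 over all genes tested.

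**Figure D2:**
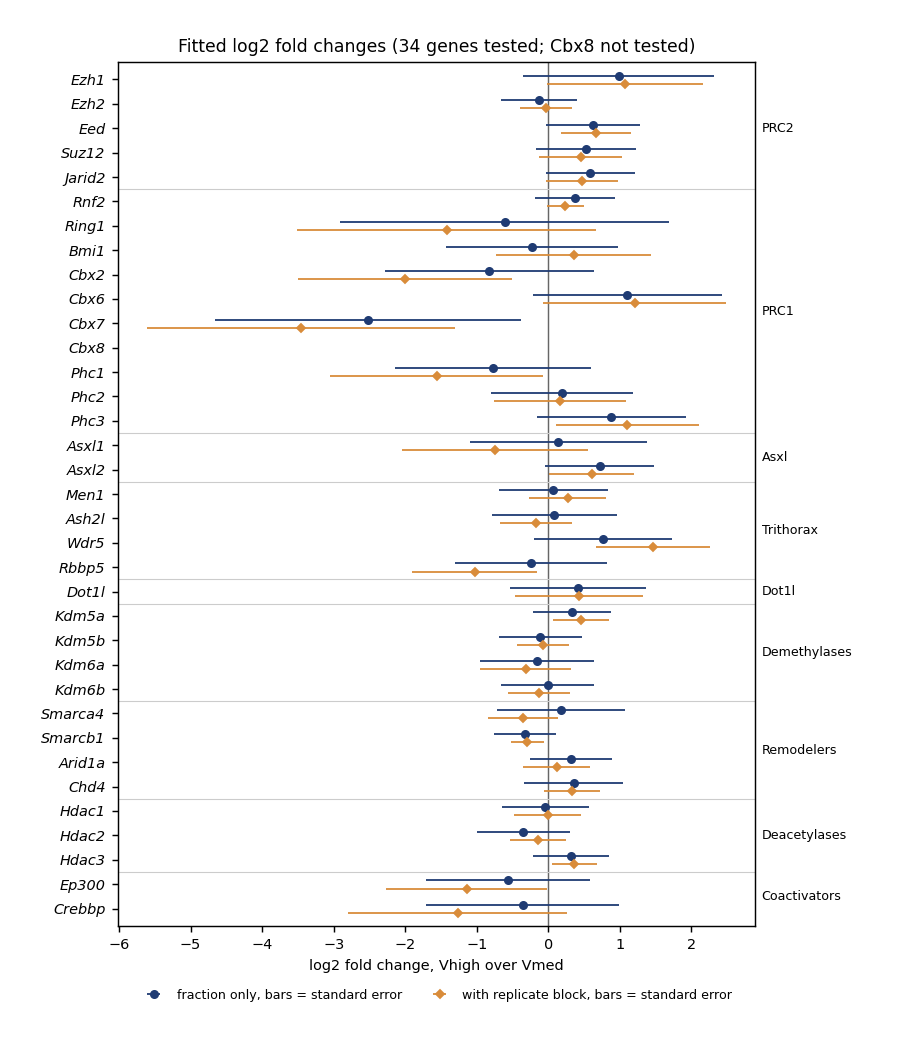
Points are fitted log2 fold changes of Vhigh over Vmed for the 34 genes tested, in blue from the fit without the replicate number and in orange with the replicate number as a block, and bars are standard errors. Most bars cross 0, and the bars are longest for *Ring1* and *Cbx7*.

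Within PRC2, *Ezh2* was the methyltransferase gene with the higher level per length in 6 of 6 libraries. *Ezh2* (chr6:47530139-47595341, GRCm38) read 169, 82.1 and 210.5 CPM in Vmed replicates 1, 2 and 3 and 116, 148 and 173 CPM in Vhigh. The Vhigh values lay inside the Vmed range, and the log2 fold change was -0.13 (standard error 0.54) with an interval from -1.33 to 1.07. *Ezh1* (chr11:101191115-101226463), whose product is the methyltransferase more common in resting cells, read 5.26, 31.7 and 5.15 CPM in Vmed and 7.69, 63.6 and 17.6 CPM in Vhigh. Each Vhigh library was above the Vmed library of its number, but the highest values of both fractions were in replicate 2 and the groups overlapped (log2 fold change 0.98, standard error 1.33).

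The ratio of *Ezh2* to *Ezh1* was taken within each library on the RPKM scale, with 0.5 CPM added to each gene. It came to 32.7, 2.86 and 41.6 in Vmed replicates 1, 2 and 3 and to 15.8, 2.58 and 10.7 in Vhigh. In log2 the mean was 3.98 ± 2.14 (SD, n = 3) in Vmed and 2.92 ± 1.37 (SD, n = 3) in Vhigh, a difference of -1.06. That difference was within the spread between replicates (exact two-sided permutation test, p = 0.5, with 0.1 the smallest p that 3 against 3 libraries allow). The differences within pairs of the same number were -1.05, -0.15 and -1.97, below 0 in each, and replicate 2 had the lowest ratio in both fractions.

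The other PRC2 genes gave positive fitted values that, without the replicate block, were all smaller than their standard errors. *Eed*, the subunit that reads the methyl mark, had 33.9, 79.5 and 53.0 CPM in Vmed and 61.7, 124 and 79.8 CPM in Vhigh. *Suz12*, the scaffold subunit, had 46.8, 50.7 and 45.9 CPM in Vmed and 76.1, 99.8 and 39.0 CPM in Vhigh. *Jarid2* had 79.3, 106 and 56.7 CPM in Vmed and 49.0, 185 and 148 CPM in Vhigh. The fractions overlapped for each of them, *Eed* being above its Vmed partner in 3 of 3 pairs, and the log2 fold changes were 0.62 for *Eed* (standard error 0.65), 0.53 for *Suz12* (0.70) and 0.59 for *Jarid2* (0.62). The median over the 5 PRC2 genes was 0.59, with 4 above 0 and 1 below. Their summed level was 334, 349.8 and 371 CPM in Vmed and 310.0, 620.1 and 457 CPM in Vhigh, so that Vmed libraries lay close together while Vhigh libraries spread on both sides of them (exact permutation p = 0.4).

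**Figure D3:**
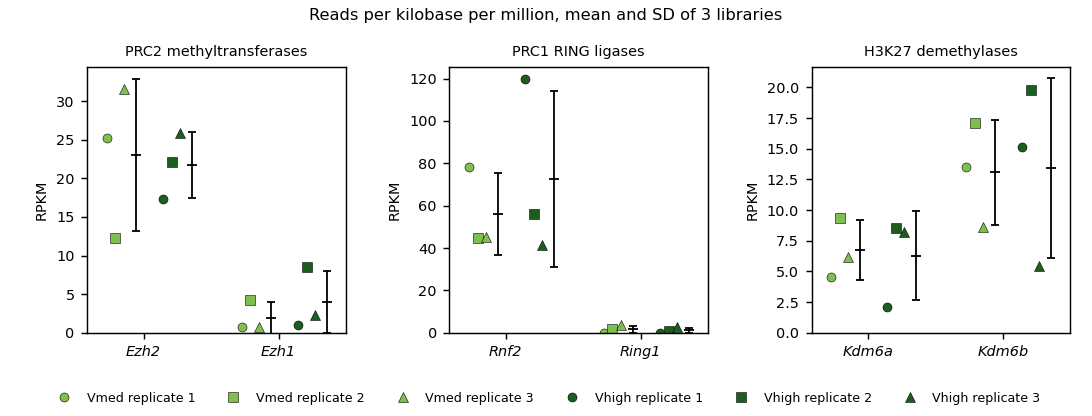
Points are RPKM of single libraries, light for Vmed and dark for Vhigh, for the gene pairs *Ezh2* and *Ezh1*, *Rnf2* and *Ring1*, and *Kdm6a* and *Kdm6b*, and bars give the mean and SD of 3 libraries per fraction, cut at 0 where they would pass below it. *Ezh2* and *Rnf2* lie above their relatives in all 6 libraries.

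Among PRC1 genes, *Rnf2*, the main E3 ligase of the complex, was at 324, 185 and 186 CPM in Vmed and 494, 232 and 172 CPM in Vhigh. Both replicate 1 libraries were the highest and the fractions overlapped (log2 fold change 0.37, standard error 0.56), with a value of -0.33 without Vhigh replicate 1. Its relative *Ring1* read 0.229, 5.06 and 11.3 CPM in Vmed and 0, 2.67 and 8.48 CPM in Vhigh. Per length *Rnf2* was above *Ring1* in 6 of 6 libraries, from 12.9-fold in Vmed replicate 3 upward. Both *Ring1* values in replicate 1 were under the limit of 3 counts, and its log2 fold change of -0.61 had a standard error of 2.30.

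The chromobox genes did not share a direction. *Cbx7* (chr15:79915807-79971119), whose product binds methylated lysine 27 of histone H3 and is known from hematopoietic stem cells, read 2.06, 9.16 and 8.75 CPM in Vmed and 0, 2.58 and 1.16 CPM in Vhigh. It was below its Vmed partner in 3 of 3 pairs, yet Vhigh replicate 2 stood above Vmed replicate 1 (log2 fold change -2.52, standard error 2.14, unadjusted p = 0.287 in the quasi-likelihood test, the lowest of the 34). Without Vhigh replicate 1, where no *Cbx7* count was found, the value was -1.94, without Vhigh replicate 2 it was -3.51, and with the replicate block it was -3.45. *Cbx6* read 6.29, 4.70 and 19.8 CPM in Vmed and 9.57, 38.6 and 22.9 CPM in Vhigh, above its partner in 3 of 3 pairs (log2 fold change 1.10, standard error 1.32). *Cbx6* shares 5.31% of its exon bases with *Npcd* on the same strand, and reads there cannot be placed with either gene. *Cbx2* read 38.9, 22.4 and 46.1 CPM in Vmed and 0.188, 12.0 and 50.4 CPM in Vhigh, and its value of -0.82 (standard error 1.46) was -0.24 without Vhigh replicate 1, which held 2 *Cbx2* counts, -2.73 without Vhigh replicate 3 and -2.00 with the replicate block. Per length *Cbx2* was above *Cbx7* and *Cbx8* in 6 of 6 libraries and above *Cbx6* in 4. In Vhigh replicate 1 the order of *Cbx2*, *Cbx7* and *Cbx8* rests on 2, 0 and 0 counts, all under the limit of 3 counts.

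*Phc3* (chr3:30899371-30969415), a polyhomeotic subunit through which PRC1 complexes join into larger assemblies, was the only gene of the 34 whose fractions did not overlap in CPM. It read 6.18, 27.6 and 25.4 CPM in Vmed and 36.8, 40.1 and 33.7 CPM in Vhigh. This is 1 of 34, against 4.15% of all genes tested with every Vhigh library above every Vmed library, and 0 of 34 lay fully below, against 4.71%. With TMM-scaled CPM the counts were again 1, *Phc3*, against 3.64%, and 0 against 5.30%. The log2 fold change was 0.88 with a standard error of 1.05, and the exact permutation p of 0.1 is the smallest that this design gives. Without Vmed replicate 1, the lowest library, the fold change was 0.47. Its relative *Phc1* read 45.4, 71.1 and 22.7 CPM in Vmed and 0.188, 51.1 and 36.1 CPM in Vhigh, with a value of -0.77 (standard error 1.37) that was -0.19 without Vhigh replicate 1, where 2 counts were found, -1.42 without Vhigh replicate 2 and -1.56 with the replicate block. *Phc2* had the smallest fold between its highest and lowest library among the 35 genes, 1.52, with 21.9 to 33.2 CPM, and was above *Phc3* per length in 6 of 6 libraries. *Bmi1* ranged from 5.15 to 60.1 CPM, both ends being Vmed libraries. Over the 9 PRC1 genes tested 4 were above 0 and 5 below, with a median of -0.23 that turned to 0.17 with the replicate block, 0.18 without Vmed replicate 1 and 0.16 without Vmed replicate 3.

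The Asxl genes encode partners of the enzyme that takes ubiquitin off histone H2A, and *Asxl1* is known for its mutations in myeloid disease. *Asxl2* read 30.0, 56.4 and 40.6 CPM in Vmed and 29.0, 98.3 and 90.3 CPM in Vhigh (log2 fold change 0.72, standard error 0.76). The lowest of the 6 values was Vhigh replicate 1 and the other Vhigh libraries were above all of Vmed. *Asxl1* was nearly even in Vmed, at 33.6 ± 1.22 CPM (SD, n = 3), but ran from 0.938 to 82.7 CPM in Vhigh, again with replicate 1 at the bottom, and its value of 0.14 was 0.71 without that library. With Vhigh replicate 1 left out, 7 of the 34 genes had both remaining Vhigh libraries above all of Vmed (*Eed*, *Jarid2*, *Cbx6*, *Phc3*, *Asxl1*, *Asxl2* and *Dot1l*), which is 20.6%, against 11.7% of all genes tested. None lay fully below, against 6.86%.

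Among the trithorax partners, *Wdr5*, the adaptor that holds the methyltransferase to its core, read 5.38, 65.7 and 171 CPM in Vmed and 94.9, 89.4 and 231 CPM in Vhigh. It was above its partner in 3 of 3 pairs and had the lowest unadjusted p of the 34 once the replicate number was a block, 0.163 in the quasi-likelihood test with an adjusted p of 0.987 (log2 fold change 1.46, standard error 0.80, against 0.77 and 0.97 without the block). The lowest value was Vmed replicate 1, and without it the fold change, with no block, was 0.22. It was 0.25 without Vhigh replicate 3 and 2.01 without Vmed replicate 3. *Men1*, *Ash2l* and *Rbbp5* had fitted values without the block of 0.07, 0.08 and -0.24, all within their standard errors. The lowest of the 6 *Rbbp5* values, 3.28 CPM, was again Vhigh replicate 1, and without it the fold change was 0.30. *Dot1l*, which methylates lysine 79 of histone H3, read 32.0, 30.7 and 17.1 CPM in Vmed and 25.0, 40.9 and 43.6 CPM in Vhigh. The fractions overlapped through Vhigh replicate 1 (log2 fold change 0.41, standard error 0.95).

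Of the histone demethylases, *Kdm5a* and *Kdm5b* remove the trithorax mark and *Kdm6a* and *Kdm6b* the PRC2 mark. *Kdm5a* read 109.6, 279 and 95.4 CPM in Vmed and 238, 217 and 156 CPM in Vhigh, with the highest and the lowest value both in Vmed (log2 fold change 0.33, standard error 0.54). The other members of the group had fitted values between -0.16 and -0.01, and the median of the 4 was -0.06, or 0.12 without Vhigh replicate 1 and 0.15 without Vmed replicate 2. Without Vhigh replicate 1, *Kdm5b* went from -0.11 to 0.12 and *Kdm6a* from -0.16 to 0.23. Per length *Kdm6b* was above *Kdm6a* in 5 of 6 libraries, with Vhigh replicate 3 as the exception, and *Kdm5a* was above *Kdm5b* in 3 of 6. *Kdm6a* lies on the X chromosome, and the part of the mix of sexes in its level was not tested.

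Per length the remodeler subunits *Smarcb1*, *Chd4* and *Smarca4* stood at ranks 2, 7 and 8 of the 35 genes. *Chd4*, the ATPase of the NuRD complex, read 72.8, 105 and 276 CPM in Vmed and 58.9, 282 and 273 CPM in Vhigh (log2 fold change 0.36, standard error 0.69). Of the 6 libraries the lowest for *Chd4* were the 2 of replicate 1. *Smarca4*, *Smarcb1* and *Arid1a*, subunits of the SWI/SNF complex, had fitted values of 0.18, -0.33 and 0.32, with standard errors of 0.89, 0.44 and 0.58. *Arid1a* was close to even in Vmed, at 115 to 138 CPM, and spread from 81.5 to 319.6 CPM in Vhigh.

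The deacetylases *Hdac1* and *Hdac2*, which sit together in NuRD and other repressor complexes, and *Hdac3*, the enzyme of the NCoR complex, had fitted values of -0.04, -0.35 and 0.32. *Hdac2* read 191, 57.4 and 289.9 CPM in Vmed and 108, 111 and 215 CPM in Vhigh, so all of Vhigh lay inside the range of Vmed (standard error 0.65). *Hdac3* was above its Vmed partner in 3 of 3 pairs, by 0.30, 0.81 and 0.08 in log2(CPM + 0.5). Per length *Hdac1* was below *Hdac2* in 5 of 6 libraries and below *Hdac3* in 5 of 6.

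The acetyltransferase coactivators *Ep300* and *Crebbp* are close relatives that acetylate histones at enhancers. *Crebbp* read 78.8, 99.1 and 48.4 CPM in Vmed and 0.0938, 134 and 59.3 CPM in Vhigh. A single *Crebbp* count was found in Vhigh replicate 1, while the other Vhigh libraries lay inside the Vmed range or above it. *Ep300* read 34.0, 47.5 and 27.9 CPM in Vmed and 2.25, 37.2 and 39.1 CPM in Vhigh. The log2 fold changes were -0.36 for *Crebbp* (standard error 1.35) and -0.56 for *Ep300* (1.15), and without Vhigh replicate 1 they were 0.22 and -0.02. In the other direction, *Crebbp* was -1.42 without Vhigh replicate 2 and *Ep300* -1.02 without Vhigh replicate 3, and with the replicate block they were -1.27 and -1.14. The median of these genes was -0.46 with Vhigh replicate 1 and 0.10 without it. *Crebbp* turned positive without that library, while *Ep300* stayed just below 0.

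Vhigh replicate 1 was under 1/4 of the lowest other library for 8 of the 34 genes, *Ring1*, *Cbx2*, *Cbx7*, *Phc1*, *Asxl1*, *Rbbp5*, *Ep300* and *Crebbp*. That is 23.5%, against the 25.0% of all genes tested, a share near the background. The same comparison for Vmed replicate 1 gave 2 of 34, *Phc3* and *Wdr5*, against 4.89% of all genes tested.

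Replicate numbers were then compared across fractions, as the libraries of the same number varied together around their fraction means. In a model with fraction and replicate number, the quasi-likelihood F-test of the number gave 0 of the 34 and 0 of 12688 genes (0%) at an adjusted p under 0.05. At an unadjusted p under 0.05 it gave 5 of the 34, which is 14.7%, against 1575 genes or 12.4%. These were *Rnf2*, *Ash2l*, *Smarca4*, *Chd4* and *Hdac2*, with adjusted p from 0.226 to 0.369 in edgeR's F-test. The likelihood ratio test called 1 of the 34, *Smarca4* (adjusted p = 0.0129), which is 2.94%, against 815 genes or 6.42%. The share at unadjusted p was thus near that of all genes tested, and the share called by the likelihood ratio test was below it.

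*Smarca4*, the ATPase of SWI/SNF, was singled out after its values were seen and showed the difference by number most plainly. It read 103, 130.3 and 391 CPM in Vmed replicates 1, 2 and 3 and 27.6, 174 and 529 CPM in Vhigh, so that both replicate 3 libraries were above the other 4 and both replicate 1 libraries below. *Ash2l* had 65.6, 39.1 and 168 CPM in Vmed and 25.6, 56.4 and 215 CPM in Vhigh, and *Men1* had 26.0, 80.5 and 167 CPM and 71.4, 60.5 and 157 CPM. The 4 trithorax partners, *Men1*, *Ash2l*, *Wdr5* and *Rbbp5*, had a summed level of 125, 254 and 566 CPM in Vmed and 195, 251 and 691 CPM in Vhigh. The sum was thus lowest in replicate 1 and highest in replicate 3 of both fractions. Single genes did not all keep this order. *Men1* and *Wdr5* in Vhigh and *Ash2l* in Vmed were lowest in replicate 2. *Rbbp5* in Vmed was highest in replicate 2, at 68.8 CPM against 59.2 CPM in replicate 3.

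In all, both replicate 3 libraries were above the other 4 for 9 of the 34 genes, or 26.5%, against 15.4% of all genes tested. They were *Ezh2*, *Ring1*, *Cbx2*, *Men1*, *Ash2l*, *Wdr5*, *Kdm5b*, *Smarca4* and *Hdac2*. Both replicate 3 libraries were below the other 4 for *Suz12*, *Kdm6b*, *Smarcb1* and *Hdac1*, 4 of 34 against 12.3%. Both replicate 2 libraries were above the other 4 for 6 of 34 against 10.2%, among them *Ezh1* and *Crebbp*, and below for *Hdac3* alone, against 2.70%. Both replicate 1 libraries were above for *Rnf2* and *Bmi1*, against 10.4%, and below for 6 of 34 (*Ring1*, *Asxl2*, *Rbbp5*, *Kdm6a*, *Smarca4* and *Chd4*), against 21.1%. The replicate number moved with *Rn45s*, which had the lowest p of all genes for the number, 1.083e-05 (adjusted p = 0.137 in the same F-test), and with the alignments outside genes given above. The part of either in the levels of the chromatin genes was not tested.

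**Figure D4:**
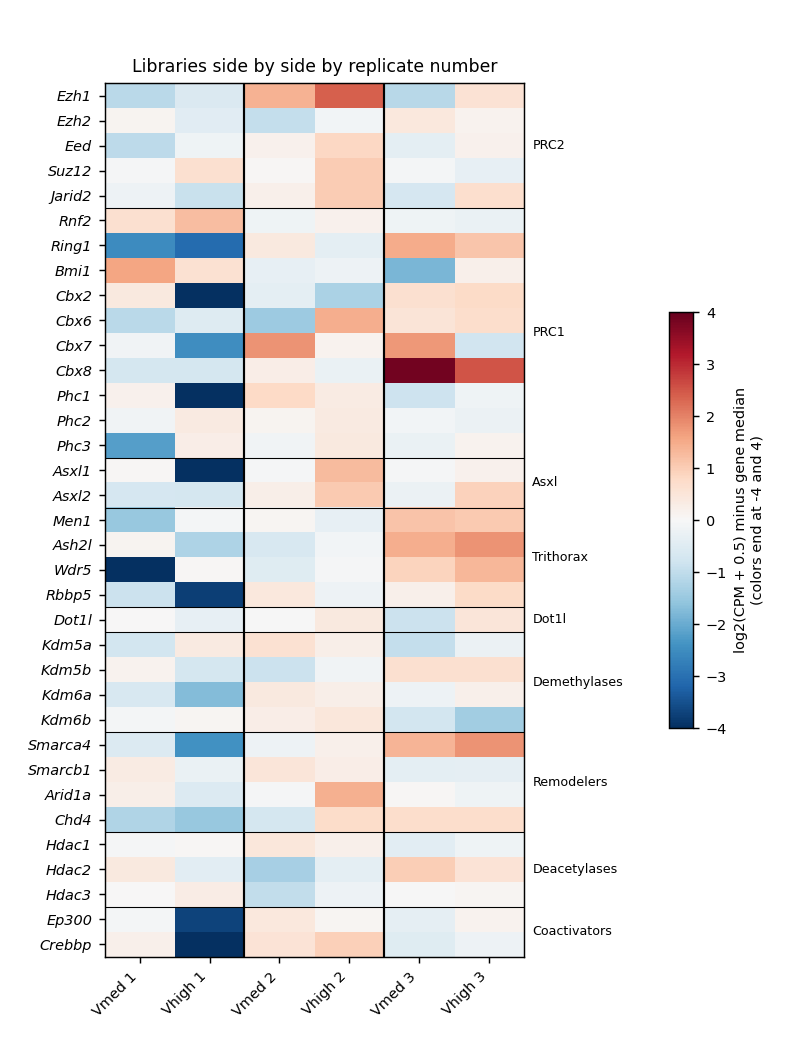
Columns are the 6 libraries side by side by replicate number, rows the 35 genes, and color shows log2(CPM + 0.5) minus the gene's median over the libraries, with the scale ended at -4 and 4. The trithorax partners *Men1*, *Ash2l* and *Wdr5*, and *Smarca4*, are red in both replicate 3 columns. The dark blue cells of Vhigh replicate 1 mark *Cbx2*, *Phc1*, *Asxl1*, *Rbbp5*, *Ep300* and *Crebbp*.

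Pairs of the same number were also read one by one. Vhigh was above Vmed in 3 of 3 pairs for 6 of the 34 genes (*Ezh1*, *Eed*, *Cbx6*, *Phc3*, *Wdr5* and *Hdac3*), against 15.2% of all genes tested, and below in 3 of 3 for *Ring1* and *Cbx7*, against 15.4%. The median difference over the 34 genes in log2(CPM + 0.5) was -0.54, 0.42 and 0.22 in pairs 1, 2 and 3, against -0.38, 0.18 and 0.04 over all genes tested, so that the sign for these genes was also the sign for all genes in each pair.

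Other subunits of the same complexes were read from a list of 112 chromatin genes outside the 35, of which 109 were tested. Of these, 0 passed an adjusted p under 0.05, 66 had a fitted value above 0 and 43 below, and the median was 0.11. An unadjusted p under 0.05 was found for 2, or 1.83%, both above 0, a share near the 2.04% of all genes tested, of which 48.9% had a value above 0. They were *Phf10*, a SWI/SNF subunit (log2 fold change 2.80, standard error 1.03, unadjusted p = 0.0282), and *Gatad2a*, a NuRD subunit (1.33, standard error 0.52, unadjusted p = 0.0308), each with an adjusted p of 0.9998 in the quasi-likelihood test. Blocking on the replicate number gave an unadjusted p of 0.0861 for *Phf10* and 0.0315 for *Gatad2a* in that test, and without Vhigh replicate 1 the fold changes were 1.36 and 0.93. *Gatad2a* read 60.5, 115 and 93.1 CPM in Vmed and 309.0, 211 and 156 CPM in Vhigh, and these did not overlap. *Phf10* read 7.32, 6.15 and 19.6 CPM in Vmed and 164, 41.6 and 20.9 CPM in Vhigh, which did not overlap either, though Vhigh replicate 3 and Vmed replicate 3 lay close, and every Vhigh library was above every Vmed library for 4.15% of all genes tested. The acetyltransferase gene *Kat8* followed with 2.29 (standard error 1.03, unadjusted p = 0.0602 in the quasi-likelihood test), or 1.23 without Vhigh replicate 1, and *Phf8*, *Brd9* and *Aebp2* with 1.85, -1.23 and 1.38 at unadjusted p of 0.172, 0.178 and 0.193.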

How the data were processed

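RNA of CD31+ckit+Vmed and CD31+ckit+Vhigh cells was amplified by the SMARTer protocol and sequenced as single 50-base reads. Alignment by the authors was to GRCm38/mm10 (Tophat/Bowtie, with Bowtie 1.1.2 and HTSeq listed in the submitters' processing notes), and the counts per gene symbol were deposited raw. The annotation and strand setting are not given in the sources used here, so reads of a gene and an antisense partner cannot be told apart. Such partners overlap up to 6.82% of a gene's exon bases (*Eed*). Lines that name no gene held 55.0% to 77.2% of the alignments and were kept out of library totals. The limit of 3 counts covers counting error only, as reads carry no molecular identifiers. No pair of libraries agreed within sampling noise.

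Libraries were grouped by their labels. CPM used each library's gene total with no scaling factor, and RPKM used exon-union lengths of GENCODE M21 on GRCm38. The comparison of fractions used edgeR 4.0.16 (R 4.3.3) with filterByExpr, which kept 12688 of 24062 genes, TMM, a quasi-likelihood fit on the fraction alone, and Benjamini-Hochberg adjustment over all genes tested. The replicate number was tested by the F-test in a model that also held the fraction. Single values were compared by exact two-sided permutation over the 20 arrangements of the libraries. Same-numbered libraries deviated together from their fraction means, with correlations across genes of 0.21, 0.21 and 0.39, and the numbers, taken from the labels, were read as pairs. In log2 CPM itself, Vmed replicates 2 and 3 correlated best with the Vhigh library of their number (0.80 and 0.79). Vmed replicate 1 correlated more with Vhigh replicate 2 (0.69) than with Vhigh replicate 1 (0.59).

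The genes and lists were chosen with earlier results of these data known. Values in every library were planned for the PRC2 genes and for genes with an unadjusted p under 0.05, fractions that do not overlap or an adjusted p under 0.05 for the replicate number, then by size of the fold change up to 20 genes. Of the other chromatin genes, the 6 with the lowest p were to be named. *Men1*, *Ash2l*, *Smarca4*, *Bmi1*, *Phc2*, *Asxl1*, *Rbbp5*, *Arid1a*, *Hdac1*, *Hdac3*, *Smarcb1* and the remaining demethylases were given values after they were seen. Alternatives were other normalizations, filters and tests (DESeq2 1.42.0 among them), the replicate block, thinning, removal of *Rn45s* and each library left out. Leaving out both replicate 1 libraries, and the count of fractions that do not overlap under another scaling or without Vhigh replicate 1, were added after seeing the data. On simulated data with the dispersions of these libraries, a 16-fold change was recovered in 62 of 200 genes (11501 tested) and a 4-fold change in 0 of 200 (11461 tested). With a dispersion of 0.1, a 4-fold change was recovered in 187 of 200 (12609 tested). The changed genes were drawn only from those above a low limit of expected counts, and the 200 include any that the filter dropped. Simulated libraries of the same number shared no deviation, unlike these libraries. *Srcap*, listed among the other chromatin genes, was not analysed here.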

Additional observations from a re-analysis of the deposited data

How the results depend on the processing

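No alternative called any of the 34 genes between the fractions. The count over all genes was 37 with no filter on low counts, 21 by the likelihood ratio test, 51 by DESeq2 and 74 by the likelihood ratio test with the replicate block, and 0 to 1 with libraries left out, the 1 being without Vhigh replicate 1. For the replicate number, the likelihood ratio test called 815 genes (6.42%) and 1 of the 34 (2.94%). Of the 34 genes, the count whose fractions did not overlap was 1 with TMM-scaled CPM and 7 without Vhigh replicate 1, all above. Over all genes tested, 3.64% lay fully above and 5.30% fully below with TMM-scaled CPM. Without Vhigh replicate 1 these shares were 11.7% and 6.86%. With the replicate block, the quasi-likelihood and likelihood ratio fits reversed the fold changes of *Bmi1* (0.35 in both), *Asxl1* (-0.74 and -0.75), *Ash2l* (-0.18 in both) and *Smarca4* (-0.35 in both). Among the 34 genes the block changed no call between the fractions. *Kdm6b*, at -0.01, was 0.0053 with RLE size factors and with DESeq2 and 0.042 with total gene counts. Another 15 of the 34 kept their sign under all alternatives. With libraries left out, the log2 fold change changed sign in 19, running from -0.087 to 2.34 for *Ezh1*, -0.46 to 0.16 for *Ezh2*, -0.33 to 0.73 for *Rnf2*, -2.15 to 0.51 for *Ring1*, -0.72 to 1.22 for *Bmi1*, -0.0033 to 0.41 for *Phc2*, -0.85 to 0.77 for *Asxl1*, -0.41 to 0.88 for *Men1*, -1.20 to 0.89 for *Ash2l*, -1.23 to 0.30 for *Rbbp5*, -0.067 to 0.93 for *Kdm5a*, -0.53 to 0.27 for *Kdm5b*, -0.41 to 0.23 for *Kdm6a*, -0.24 to 0.41 for *Kdm6b*, -1.15 to 1.04 for *Smarca4*, -0.40 to 0.72 for *Arid1a*, -0.22 to 0.17 for *Hdac1*, -0.80 to 0.17 for *Hdac2* and -1.42 to 0.29 for *Crebbp*. Of the others, it ran from 0.38 to 0.94 for *Eed*, 0.35 to 0.87 for *Suz12*, 0.28 to 0.97 for *Jarid2*, 0.67 to 2.01 for *Cbx6*, 0.50 to 1.07 for *Asxl2*, 0.18 to 0.77 for *Dot1l*, -0.55 to -0.18 for *Smarcb1*, 0.04 to 1.14 for *Chd4* and 0.03 to 0.51 for *Hdac3*. The causes were not tested. The median fold change over the tested members ran from -0.04 to 0.21 over all alternatives. The median level of these genes in each library, in log2(CPM + 0.5), had a pooled SD of 0.54 within fractions. That SD is a spread of levels and not of fold changes. The *Ezh2* to *Ezh1* difference ran from -2.29 to -0.28 with libraries left out, and its p as pairs was 0.25 (exact sign-flip permutation, the smallest that 3 pairs allow). In Vhigh replicate 1, *Ring1*, *Cbx7* and *Cbx8* had 0 counts, *Cbx2* and *Phc1* 2 and *Crebbp* 1, although its 10660122 gene counts exceed those of each Vmed library.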
